A study of Schizosaccharomyces pombe with 16 samples.

Results

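The genes described here encode enzymes that make amino acids in the fission yeast S. pombe, outside the sulfur branch: those of arginine, lysine, histidine, leucine, aromatic amino acid, serine and proline synthesis. They were taken by gene symbol from a list of 36. The rule uses no value of the count table, but the list was drawn up with earlier results of these data known. Of these, 33 were found by symbol among the 7014 genes of the count table (8 for arginine, 6 for lysine, 6 for histidine, 3 for leucine, 6 for aromatic amino acids, 3 for serine and 1 for proline), and all 33 passed the filter on low counts that left 6170 genes for testing. lys9 (SPBC3B8.03) and his6 (SPAC3F10.09) stand in the table under their systematic identifiers and are given apart, and his9 was matched to no row.

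Total mRNA and polysome fractions (mRNAs carrying several ribosomes, taken from sucrose gradients) were sequenced from eIF2α.S52A and WT cells, at 6 h and at 0 h, in 16 libraries that form 8 groups of 2. At 0 h the cultures, in rich YES medium at 30° C, had an OD550 of 0.5 by the sample labels. The paper describes the cultures 6 h later both as in exponential growth and as pre-stationary. WT was the strain 972 h-, and the mutant carried eIF2alfa.S52A:Ura4 with ura4-D18, so that a marker gene and the ura4 allele differ between the strains beside the serine-to-alanine change in eIF2α. Replicate 1 of every group came from experiment A and replicate 2 from experiment B, so a p-value rests on the spread between 2 experiments.

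Amino acid synthesis genes are known for being controlled together. When an amino acid runs short, kinases such as Gcn2 phosphorylate eIF2α, which lowers translation initiation in general and favours that of the mRNA of a transcription factor, Gcn4 in budding yeast, which in turn activates synthesis genes of many pathways. In fission yeast the GATA-type zinc finger factor Fil1 (SPCC1393.08) takes this place, and the alanine of eIF2α.S52A cannot be phosphorylated.

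The libraries held between 11279417 and 20522997 counts. Cytosolic ribosomal protein genes took 31.1% of the scaled counts in replicate 1 and 45.9% in replicate 2 of eIF2α.S52A polysome fractions at 6 h, and 15.6% and 22.5% in total mRNA, so replicate 2 stood closer to the 0 h libraries of its strain (53.1% to 53.4% in polysome fractions, 24.2% to 25.1% in total mRNA). In WT cells these shares were 27.2% to 30.1% in polysome fractions and 12.7% to 13.3% in total mRNA at 6 h, against 46.3% to 47.7% and 23.5% to 24.8% at 0 h. The 33 synthesis genes together held 0.532% to 0.899% of the scaled counts of a polysome library and 0.984% to 1.18% of those of a total library. Levels are relative to the other mRNAs of the library and to the composition of the culture, so less of an mRNA per cell and fewer cells that make it cannot be told apart.

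These genes were expressed well above the typical gene. Per kilobase of annotated exon and as a mean over the 8 total libraries, their median level was 99.0 CPM (TMM-scaled counts relative to library size), against 28.4 CPM over 5012 protein-coding genes, and 31 of the 33 lay above that value. leu1, the 3-isopropylmalate dehydrogenase of leucine synthesis, had the highest mean at 355 CPM per kilobase (305 to 421 over the 8 libraries). In single libraries leu1 was the highest in 4 of the 8, his1 in 2 of the 0 h libraries and ser3 in 2 of the 6 h libraries. In the order of the means next came his1 (ATP phosphoribosyltransferase, which commits a nucleotide to histidine) at 277, arg1 (acetylornithine aminotransferase) at 250.4 and lys4 (homocitrate synthase, the entry to lysine) at 236, and the library ranges of these 3 overlapped. At the low end stood arg7, the argininosuccinate lyase, at 24.4, with 17.3 to 27.7 over the libraries, and lys7, which attaches the phosphopantetheine arm to aminoadipate reductase, at 14.8, with 10.9 to 20.6.

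The same mRNAs differed in how much of them was found in polysome fractions. The log2 ratio of polysome CPM to total CPM, taken within each of the 8 library pairs, had a median of 0.47 over the 33 genes and of 0.01 over the 5012 protein-coding genes, a description with no test. It was above 0 in all 8 pairs for 18 of the 33 genes and for 1740 of the 5012. his5, the imidazoleglycerol-phosphate dehydratase, stood highest at 1.96 (1.39 to 2.43), followed by ser1, the phosphoserine aminotransferase, at 1.496 (0.88 to 2.16) and leu1 at 1.21 (0.81 to 1.64). Lowest were arg4, the large subunit of the arginine-specific carbamoyl-phosphate synthase, at −0.64 (−0.97 to −0.35) and lys7 at −0.59 (−1.38 to −0.10), the 2 genes below 0 in all 8 pairs. By pathway the medians ran from 0.75 for histidine and 0.58 for aromatic amino acids to 0.05 for arginine and 0.02 for lysine. The zero of this ratio moves with the scaling of the libraries, since the TMM factors were 0.434 to 0.949 in polysome libraries and 1.33 to 1.69 in total libraries, while the order of the genes within a pair does not.

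**Figure D1:**
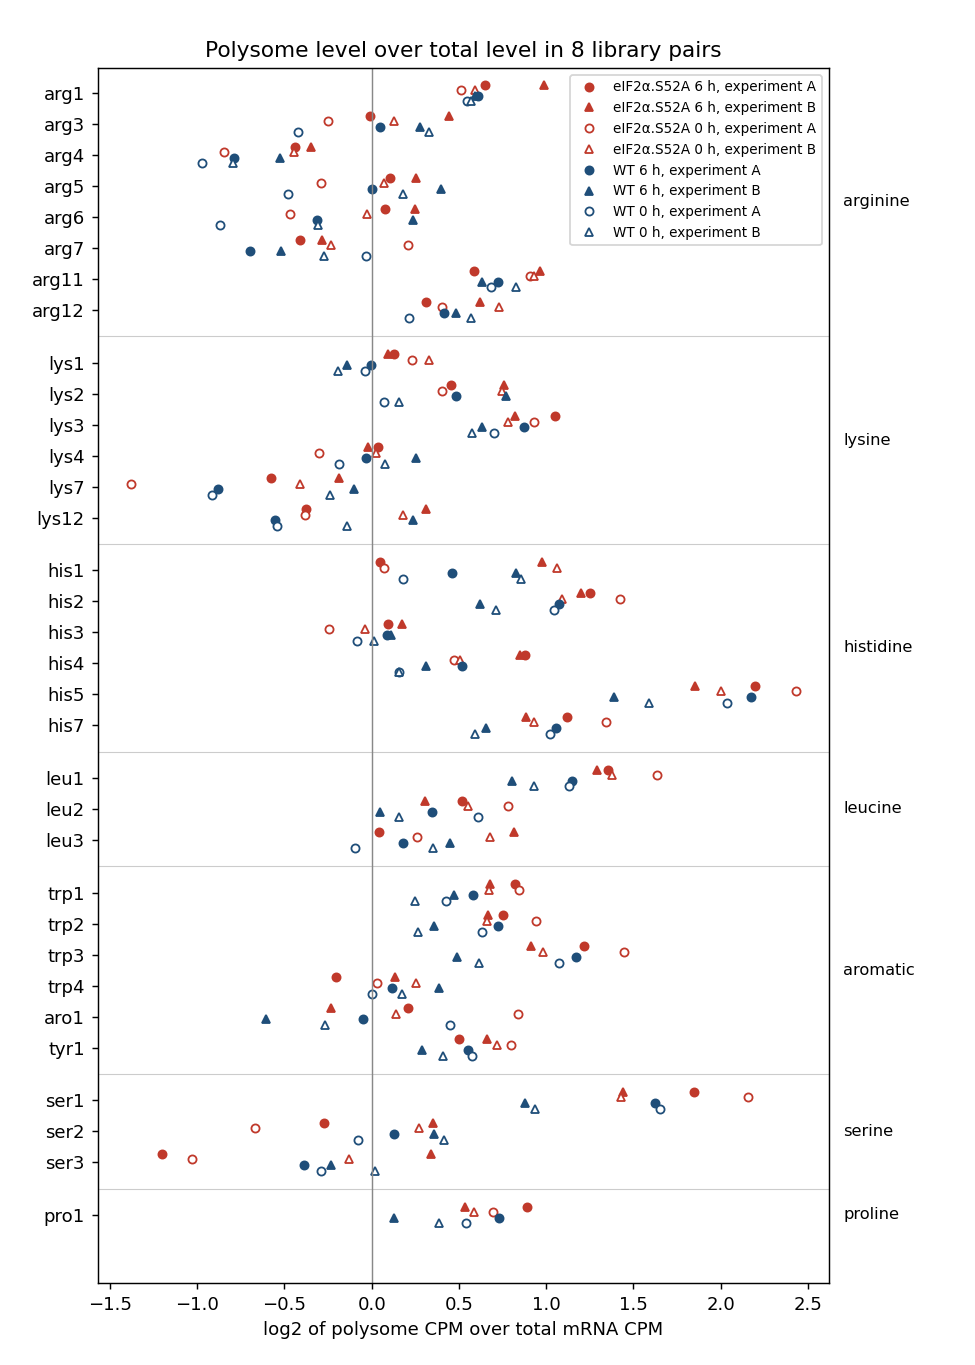
Log2 ratio of polysome CPM to total mRNA CPM (x axis) for each of the 33 genes (y axis, by pathway), with 1 symbol for each of the 8 pairs of libraries: red for eIF2α.S52A, blue for WT, filled for 6 h, open for 0 h, circles for experiment A and triangles for experiment B. his5 and ser1 lie to the right of 0 in every pair (1.39 to 2.43 and 0.88 to 2.16) and arg4 to the left (−0.97 to −0.35).

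Some of the spread followed the experiment. In polysome fractions 6 of the 33 genes had the higher level in experiment A in all 4 groups and 11 had the higher level in experiment B, which is 51.5% of them, against 43.3% of all genes tested. aro1, the pentafunctional enzyme of the shikimate pathway, was 0.42 to 0.83 higher in experiment A on the log2 scale and ser1 0.26 to 0.80. his1 was lower in experiment A by a log2 difference of −1.42 to −0.50 and ser2, the phosphoserine phosphatase, by −0.89 to −0.23. In total mRNA 3 genes were higher in experiment A and 4 in experiment B in all 4 groups, which is 21.2%, against 36.1% of all genes tested.

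The first comparison asks which synthesis mRNAs were at a higher or lower level in polysome fractions, relative to other mRNAs, after 6 h of growth of cells that cannot phosphorylate eIF2α. In eIF2α.S52A polysome fractions tyr1, which encodes the prephenate dehydrogenase of tyrosine synthesis, was the gene that fell, and no gene rose. In eIF2α.S52A polysome fractions tyr1 had 66.0 and 69.9 CPM at 6 h, against 111 and 102 CPM at 0 h (68.0 ± 2.71 and 106 ± 6.33, mean ± SD, n = 2 each). Both libraries at 6 h were below both at 0 h. tyr1 fell by 0.65 on the log2 scale (SE 0.15, edgeR's quasi-likelihood test with Benjamini-Hochberg adjustment, adjusted p = 0.0303), with −0.74 in experiment A and −0.54 in experiment B. In total mRNA of the same cells tyr1 had 46.3 and 43.9 CPM at 6 h and 63.4 and 61.6 CPM at 0 h, again without overlap, for a log2 change of −0.47 (SE 0.15, adjusted p = 0.119). The polysome level includes the level of the mRNA, and the change of tyr1 in polysome fractions relative to total mRNA was −0.18 (SE 0.21, adjusted p = 1.0). In WT polysome fractions tyr1 had 74.0 and 63.9 CPM at 6 h and 94.35 and 80.15 CPM at 0 h. These groups did not overlap either (−0.34, SE 0.15, adjusted p = 0.137). WT total mRNA held 50.1 and 52.1 CPM of tyr1 at 6 h and 63.0 and 60.2 CPM at 0 h. With the replicate number as a block the adjusted p of tyr1 in eIF2α.S52A polysome fractions was 0.0155. The call was lost without replicate 1 at 6 h (adjusted p = 0.166), without replicate 1 at 0 h (0.162) and without replicate 2 at 0 h (0.0624), and over all alternatives the adjusted p ranged from 0.000807 to 0.818, the highest under library size scaling, where tyr1 stood at −0.050.

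Over the 33 genes in eIF2α.S52A polysome fractions, 0 were called higher and 1 lower, which is 3.03% beside 6.99% of all genes tested. The median log2 change was −0.18, against 0.00 over all genes tested, with 24 of the 33 and 3084 of the 6170 below 0. Values ran from −0.73 for his1 to 1.09 for ser3. All 6 aromatic genes lay below 0 (median −0.50, −0.67 to −0.05), and the 8 arginine genes were split evenly around a median of 0.05 (−0.72 to 0.37). With the replicate block 3 genes were called, tyr1 and trp3 lower and ser3 higher, which is 9.09% beside 13.7% of all genes under that fit. Library size scaling, which moved the median of all genes tested to 0.59, called 8 genes higher and 0 lower (24.2% beside 31.9% of all genes), with a median of 0.41 over the 33.

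The remaining pathways of eIF2α.S52A polysome fractions are given by the gene with the smallest p in each. arg7, the last enzyme of arginine synthesis, had 19.3 and 28.35 CPM at 6 h, against 44.5 and 34.0 CPM at 0 h, a log2 change of −0.72 (SE 0.23, adjusted p = 0.0779). Its groups did not overlap, though replicate 2 at 6 h lay much closer to the 0 h libraries than replicate 1 did. Without that library, which is the one with the high ribosomal protein share, arg7 stood at −1.02 (adjusted p = 0.0252) and his1 at −1.61 (adjusted p = 0.0227), so that 3 genes were called lower, these 2 and tyr1, which is 9.09% beside 14.0% of all genes in that fit. The part of that library's composition in these values was not tested.

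ser3, the D-3-phosphoglycerate dehydrogenase that opens serine synthesis, had 443 and 580.5 CPM at 6 h in eIF2α.S52A polysome fractions, against 203 and 277 CPM at 0 h. Both libraries at 6 h were above both at 0 h, by a log2 change of 1.09 (SE 0.37, adjusted p = 0.0931, and 0.0468 with the replicate block). pro1, the gamma-glutamyl phosphate reductase of proline synthesis, had 179.95 and 176 CPM at 6 h and 118 and 132 CPM at 0 h, also without overlap (0.51, SE 0.19, adjusted p = 0.125). his5 had 427 and 534 CPM at 6 h, against 836 and 626 CPM at 0 h (−0.61, SE 0.27, adjusted p = 0.184), and −0.38 without replicate 1 at 0 h. The same order without overlap held for lys3, the saccharopine dehydrogenase that forms lysine, at 473 and 493 CPM at 6 h and 650.5 and 564 CPM at 0 h (−0.33, SE 0.19, adjusted p = 0.315). leu1 had 1005 and 963 CPM at 6 h and 1557 and 1086 CPM at 0 h (−0.43, SE 0.24, adjusted p = 0.301). Its 6 h libraries were alike, and the distance to 0 h came mostly from replicate 1. None of ser3, pro1, his5, lys3 and leu1 passed the threshold in the fit without a block.

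**Figure D2:**
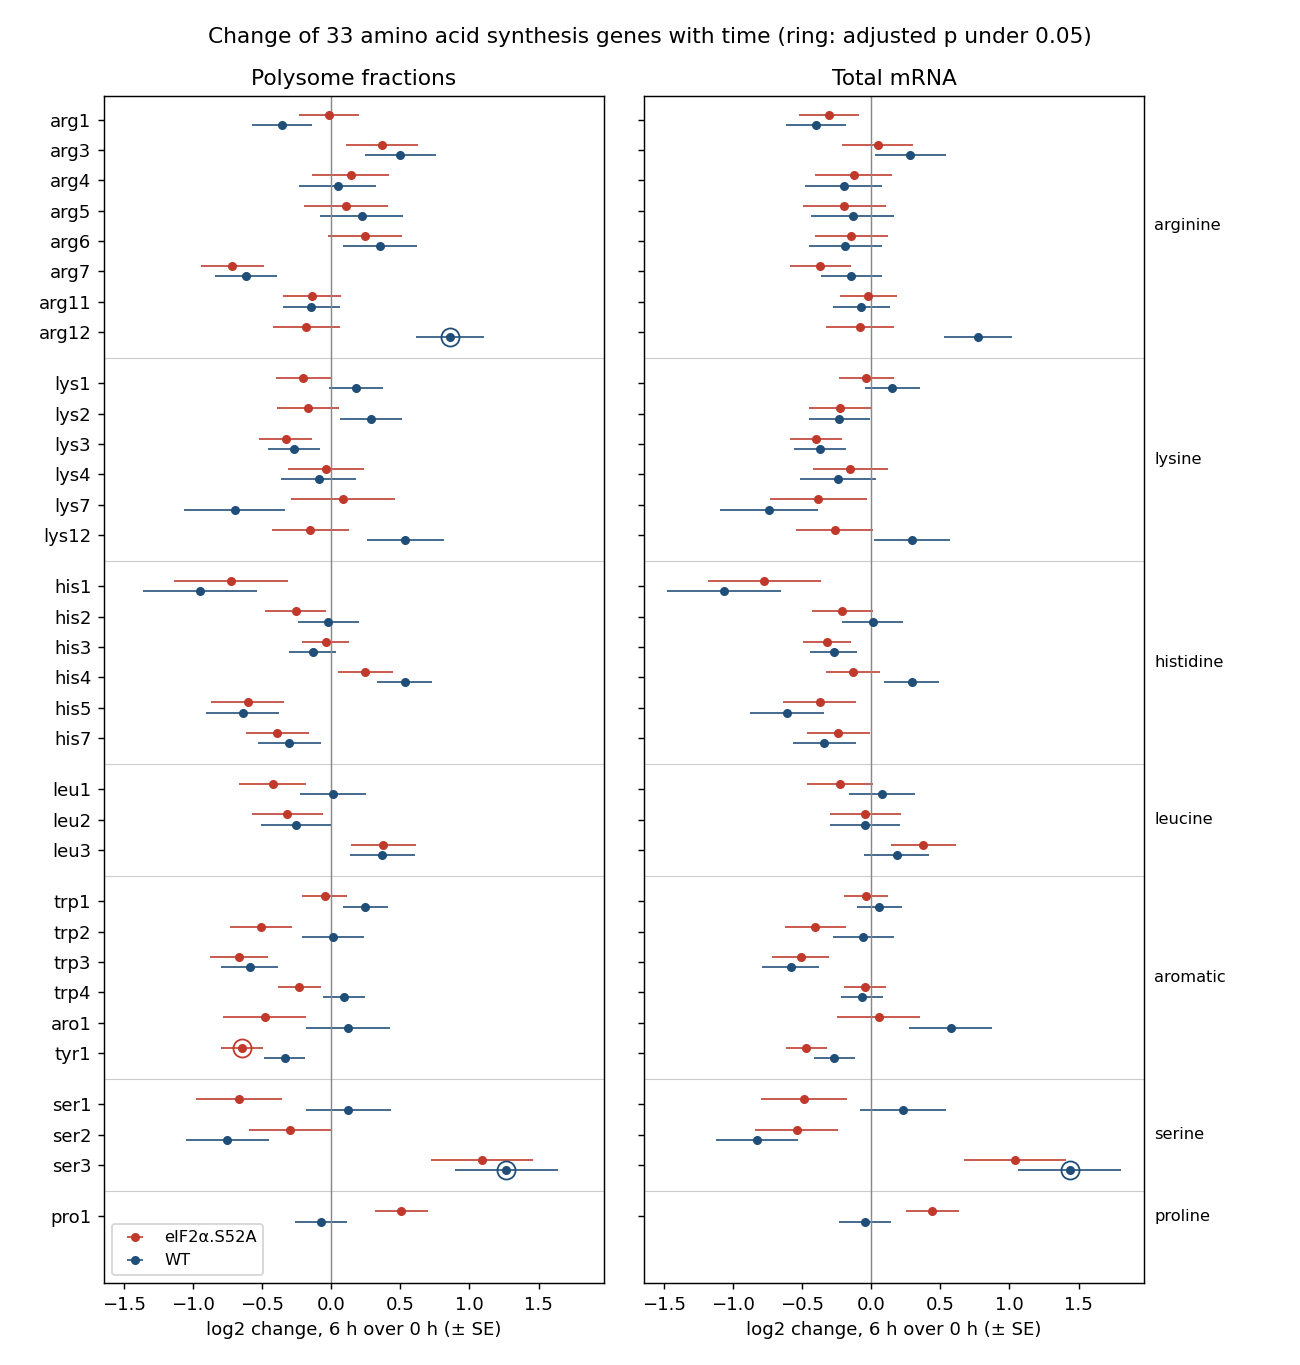
Log2 change from 0 h to 6 h with its SE (x axis) for each of the 33 genes (y axis, by pathway), in polysome fractions (left) and total mRNA (right), eIF2α.S52A in red above WT in blue. Rings mark the adjusted p under 0.05: tyr1 at −0.65 in eIF2α.S52A polysome fractions, arg12 at 0.86 and ser3 at 1.27 in WT polysome fractions, and ser3 at 1.44 in WT total mRNA.

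In WT polysome fractions 2 genes were called, both higher at 6 h: ser3 at the entry to serine and arg12 near the end of the arginine pathway. ser3 was also higher at 6 h in eIF2α.S52A polysome fractions, by 1.09 and without a call, as given above. In WT polysome fractions ser3 had 727 and 538 CPM at 6 h, against 279 and 246 CPM at 0 h (633 ± 134 and 263 ± 23.3, mean ± SD, n = 2 each). Both libraries at 6 h were far above both at 0 h. The log2 change was 1.27 (SE 0.37, adjusted p = 0.0357), with 1.38 in experiment A and 1.12 in experiment B. ser3 lost the call with any 1 of the 4 libraries left out (adjusted p from 0.0731 without replicate 2 at 6 h to 0.16 without replicate 2 at 0 h), and the adjusted p ranged from 0.0044 to 0.16 over all alternatives.

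arg12 is the argininosuccinate synthase, which joins citrulline and aspartate ahead of arg7. In WT polysome fractions it had 436 and 634 CPM at 6 h, against 309.8 and 281 CPM at 0 h (535 ± 140 and 295 ± 20.6, mean ± SD, n = 2 each). Both libraries at 6 h were above both at 0 h, and the 2 experiments differed in the size of the step, with 0.49 in experiment A and 1.17 in experiment B. The log2 change was 0.86 (SE 0.25, adjusted p = 0.0328). The call was lost without replicate 1 at 0 h (adjusted p = 0.104), replicate 2 at 0 h (0.153) or replicate 2 at 6 h (0.199), and the range over all alternatives was 0.00303 to 0.199.

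Of the 33 genes in WT polysome fractions, these 2 were called higher and 0 lower, which is 6.06% beside 17.5% of all genes tested. The median log2 change was 0.01, against −0.01 over all genes tested, with 17 above 0, and values ran from −0.95 for his1 to 1.27 for ser3. Library size scaling, with the median of all genes tested at 0.498, called 10 genes higher and 0 lower (30.3% beside 33.3% of all genes). With the replicate block 6 genes were called, which is 18.2% beside 27.4% of all genes. These were arg12, ser3 and his4 higher (his4 at 0.52, adjusted p = 0.0478) and his1 (−0.94, adjusted p = 0.0473), ser2 (−0.75, adjusted p = 0.0457) and trp3 (−0.59, adjusted p = 0.0469) lower.

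In WT polysome fractions the other pathways held no call in the fit without a block. his4, the imidazoleglycerol-phosphate synthase, had 169 and 214 CPM at 6 h, against 134 and 131 CPM at 0 h (0.53, SE 0.20, adjusted p = 0.0828). trp3, component I of anthranilate synthase on the way to tryptophan, had 235 and 179.8 CPM at 6 h and 341 and 285 CPM at 0 h (−0.59, SE 0.21, adjusted p = 0.0676). Both had groups that did not overlap, in opposite directions. lys12, the homoisocitrate dehydrogenase, had 135 and 222 CPM at 6 h and 122 and 124 CPM at 0 h (0.54, SE 0.28, adjusted p = 0.201), so the step came nearly all from replicate 2. leu3, the 2-isopropylmalate synthase that opens leucine synthesis, had 298 and 348 CPM at 6 h and 225 and 276 CPM at 0 h (0.37, SE 0.24, adjusted p = 0.298). pro1 had 117 and 94.35 CPM at 6 h and 109.7 and 113 CPM at 0 h (−0.08, SE 0.19, adjusted p = 0.816), its 6 h libraries lying on either side of those at 0 h.

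In total mRNA of WT cells ser3 was again called higher, and it was the only one of the 33 genes called. In WT total mRNA ser3 had 953 and 632 CPM at 6 h, against 342.5 and 243 CPM at 0 h, so that the lowest 6 h library was above the highest 0 h library. ser3 rose by a log2 change of 1.44 (SE 0.37, adjusted p = 0.0294), with 1.47 in experiment A and 1.37 in experiment B. The call was lost with any 1 of the 4 libraries left out (adjusted p from 0.0636 without replicate 2 at 6 h to 0.225 without replicate 1 at 6 h), and the range over all alternatives was 0.00331 to 0.225. Of the 33 genes 1 was called higher and 0 lower, which is 3.03% beside 12.0% of all genes tested, and the median was −0.07, against −0.01 over all genes tested.

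arg12 came next in WT total mRNA, with 327 and 453 CPM at 6 h, against 267 and 189 CPM at 0 h (0.77, SE 0.25, adjusted p = 0.0587, and 0.0409 with the replicate block). The groups did not overlap, and as in polysome fractions experiment B held the larger step (1.26, against 0.29 in experiment A). his1 had 216 and 237 CPM at 6 h and 487 and 464 CPM at 0 h (−1.07, SE 0.41, adjusted p = 0.107, and 0.0319 with the block). ser2, which takes the last step to serine, had 64.5 and 64.7 CPM at 6 h and 121 and 108 CPM at 0 h (−0.83, SE 0.30, adjusted p = 0.0887, and 0.0334 with the block). Thus the 2 ends of the serine pathway, ser3 and ser2, lay on opposite sides of 0. With the block 4 genes were called, which is 12.1% beside 22.3% of all genes. trp3 had 104 and 128 CPM at 6 h and 162 and 185 CPM at 0 h (−0.58, SE 0.21, adjusted p = 0.0835), without overlap. lys7 had 16.5 and 14.95 CPM at 6 h and 24.2 and 28.3 CPM at 0 h (−0.74, SE 0.35, adjusted p = 0.186), a gene of low counts. leu3 (0.18, SE 0.24, adjusted p = 0.66) and pro1 (−0.05, SE 0.19, adjusted p = 0.902) were nearest to 0 among the genes given here, with 264 and 255 CPM for leu3 and 70.1 and 86.15 CPM for pro1 at 6 h, against 240.3 and 217 CPM and 75.2 and 86.3 CPM at 0 h.

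In eIF2α.S52A total mRNA no gene of the 33 was called. edgeR's quasi-likelihood test gave 0 of 33 (0 called higher, 0 called lower) beside 2.87% of all genes tested, 4 of 33 at an unadjusted p under 0.05 beside 18.2% of all genes, and DESeq2 called 1 (tyr1) beside 7.8%. The median log2 change was −0.21, against −0.04 over all genes tested, and 28 of the 33 and 3308 of the 6170 lay below 0. All 6 lysine and all 6 histidine genes were below 0 (medians −0.25 and −0.28). ser3 had 1020.3 and 459 CPM at 6 h, against 415 and 304 CPM at 0 h (1.04, SE 0.37, adjusted p = 0.163). Replicate 1 carried most of that distance, and without replicate 2 of total mRNA at 6 h ser3 stood at 1.505 (adjusted p = 0.0333).

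his1 had 229 and 321 CPM at 6 h in eIF2α.S52A total mRNA and 504 and 436 CPM at 0 h (−0.77, SE 0.41, adjusted p = 0.346), and pro1 had 96.65 and 121 CPM, against 72.8 and 87.4 CPM (0.44, SE 0.19, adjusted p = 0.243). Both genes had groups without overlap. The same held for lys3, with 228 and 278 CPM at 6 h and 340.15 and 328 CPM at 0 h (−0.40, SE 0.19, adjusted p = 0.29), for leu3, with 304 and 297 CPM, against 243 and 220.4 CPM (0.38, SE 0.24, adjusted p = 0.428), and for arg7, with 26.0 and 34.7 CPM, against 38.4 and 40.1 CPM (−0.37, SE 0.22, adjusted p = 0.403). None of these genes was called. A lack of overlap between groups of 2 libraries is a description with no test, and its share over all genes was not counted.

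**Figure D3:**
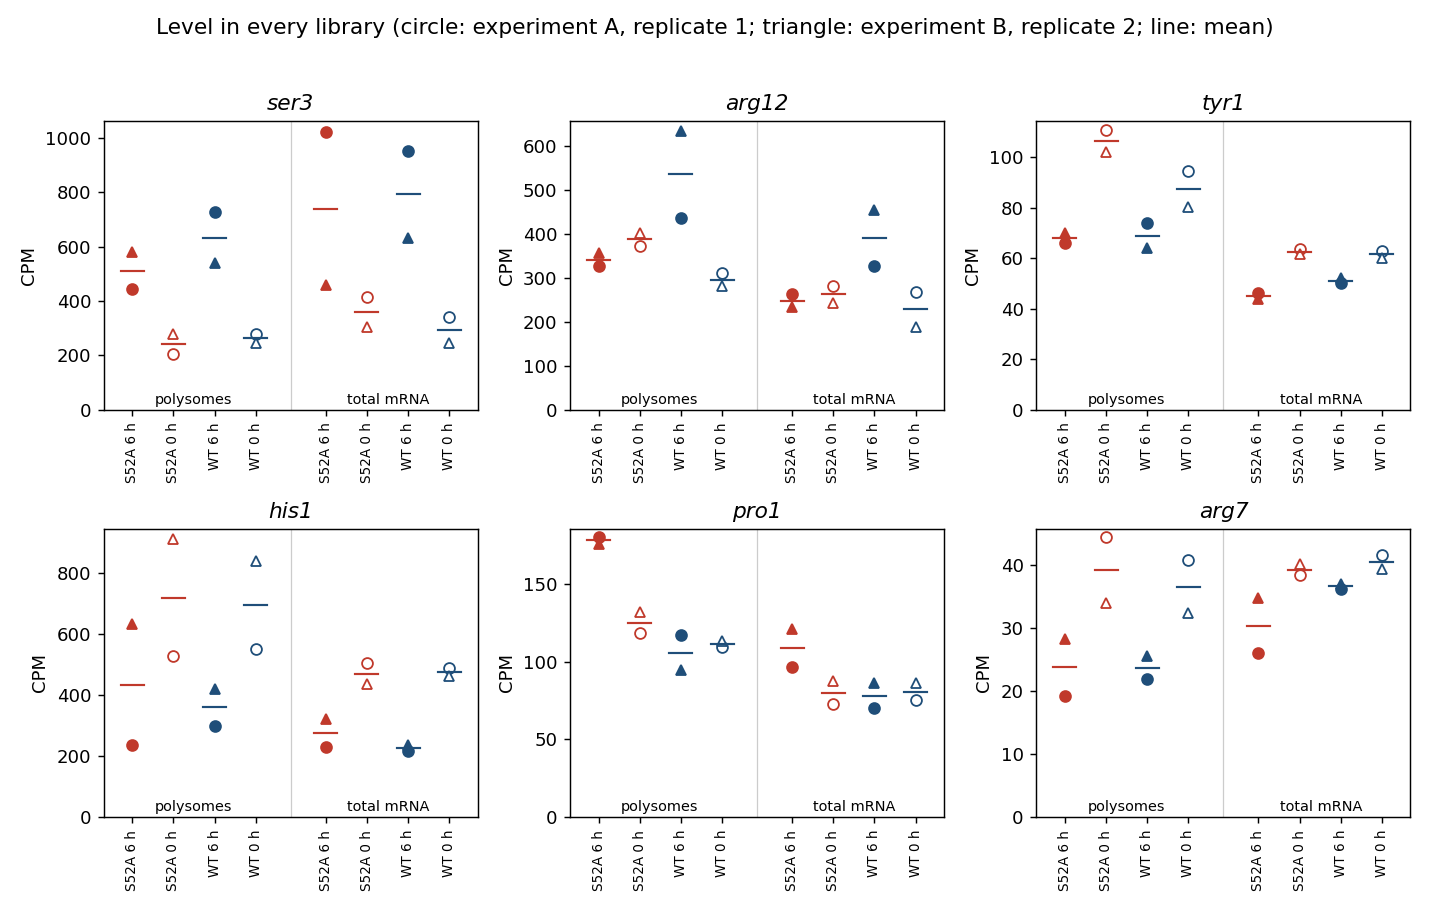
CPM (y axis, from 0) of 6 genes in every library, with polysome fractions left and total mRNA right of the grey line, red for eIF2α.S52A, blue for WT, filled for 6 h and open for 0 h, circles for experiment A, triangles for experiment B and a line at the mean of 2. The 6 h libraries of ser3 lie above the 0 h libraries in each strain and fraction, while arg12 at 6 h stands at 436 and 634 in WT polysome fractions and at 326 and 357 in those of eIF2α.S52A cells.

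Whether the change with time differed between the strains was tested as such. arg12 had the smallest p. In polysome fractions its log2 change was −0.18 in eIF2α.S52A cells, where it had 326 and 357 CPM at 6 h and 371 and 403 CPM at 0 h, and 0.86 in WT cells. The difference of the changes was −1.04 (SE 0.35, unadjusted p = 0.011, adjusted p = 0.846), negative in both experiments (−0.68 in A and −1.34 in B). In total mRNA it was −0.86 (SE 0.35, unadjusted p = 0.0288, adjusted p = 0.999), with −0.39 and −1.32. pro1 was next and of the other sign, at 0.58 in polysome fractions (SE 0.27, adjusted p = 0.848) and 0.49 in total mRNA (SE 0.27, adjusted p = 0.999), between 0.47 and 0.67 in each experiment and fraction.

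No strain difference of the 33 genes passed the threshold. In polysome fractions edgeR's test called 0 of 33 beside 0.0% of all genes tested, 1 of 33 at an unadjusted p under 0.05 beside 5.59%, and DESeq2 called 0 beside 0.373%. In total mRNA the counts were 0 beside 0.0%, 1 beside 2.37%, and 0 by DESeq2 beside 0.0162%. The members' medians were −0.11 in polysome fractions and −0.03 in total mRNA, against 0.02 and −0.01 over all genes tested.

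Translational efficiency (TE), the polysome level relative to total mRNA, held no call either. In eIF2α.S52A cells edgeR's test of the change in TE called 0 of 33 beside 0.0% of all genes tested, 0 at an unadjusted p under 0.05 beside 1.6%, and DESeq2 called 0 beside 0.0486%. In WT cells it called 0 beside 0.0162%, 0 beside 2.53%, and DESeq2 called 0 beside 0.0972%. The medians were 0.00 in eIF2α.S52A cells and 0.07 in WT cells, against 0.01 and 0.02 over all genes tested, within −0.54 to 0.54 for every one of the 33. The strain difference of TE changes was called for 0 of 33 beside 0.0% of all genes, for 0 at an unadjusted p under 0.05 beside 0.616%, and by DESeq2 for 0 beside 0.0162%, with a median of −0.07.

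The genes with the smallest p in these TE tests are given with their levels, and none was called. his4 stood at 0.38 (SE 0.28) in eIF2α.S52A cells, where polysome fractions held 193 and 213 CPM at 6 h and 174 and 169 CPM at 0 h, and total mRNA 104 and 117 CPM, against 125.2 and 118 CPM. aro1 stood at −0.54 (SE 0.43), with 187 and 139 CPM in polysome fractions at 6 h and 286 and 171 CPM at 0 h, while its total mRNA stayed between 155 and 164 CPM. The distance between the experiments of aro1 described above lies within these values. In WT cells lys2, the homoaconitate hydratase, stood at 0.52 (SE 0.32), with 298 and 366 CPM in polysome fractions at 6 h, against 259 and 285 CPM at 0 h, and 213 and 214 CPM in total mRNA, against 247 and 255 CPM. arg7 stood at −0.48 (SE 0.31), with 22.0 and 25.5 CPM in polysome fractions at 6 h and 40.8 and 32.5 CPM at 0 h. For the strain difference the smallest p belonged to trp4, the anthranilate phosphoribosyltransferase, at −0.35 (SE 0.31), and to lys2 at −0.46 (SE 0.45). The adjusted p of all of these was 1.0.

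Between the strains, the polysome fractions at 0 h gave the most even picture. Of the 33 genes 26 were higher in eIF2α.S52A than in WT cells in both experiments, 4 were lower in both and 3 differed in sign. That is 78.8% and 12.1%, against 39.5% and 33.1% of all genes tested. The median log2 difference was 0.27, against 0.03 over all genes tested, with 0.23 in experiment A and 0.24 in experiment B. All 8 arginine genes (0.10 to 0.39) and all 3 leucine genes (0.25 to 0.43) were above 0. Of the 3 serine genes 2 were below 0 (median −0.13, −0.24 to 0.47), and the lysine, histidine and aromatic genes each held 1 below 0. The 20 other amino acid synthesis genes listed for comparison had a median of 0.29 and the 16 genes of the sulfur branch one of 0.26. Under library size scaling the median of the 33 turned to −0.17 and that of all genes was −0.40. Ribosomal protein genes took 53.1% to 53.4% of the eIF2α.S52A and 46.3% to 47.7% of the WT libraries, and their part in the result was not tested.

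No gene passed the test at 0 h in polysome fractions. edgeR's test called 0 of 33 beside 0.0% of all genes tested, 2 at an unadjusted p under 0.05 beside 8.91%, and DESeq2 called 1 (trp1, adjusted p = 0.0451) beside 0.665%. trp1, the multifunctional protein with component II of anthranilate synthase, had 303 and 276 CPM in eIF2α.S52A cells, against 215 and 193 CPM in WT cells (0.51, SE 0.16, adjusted p = 0.452). lys1, the aminoadipate reductase, had 260.1 and 238 CPM, against 212 and 157 CPM (0.43, SE 0.20, adjusted p = 0.556). Both were higher in either eIF2α.S52A library than in either WT library. lys7 lay lowest of the 33 at −0.56, and it has the lowest counts.

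**Figure D4:**
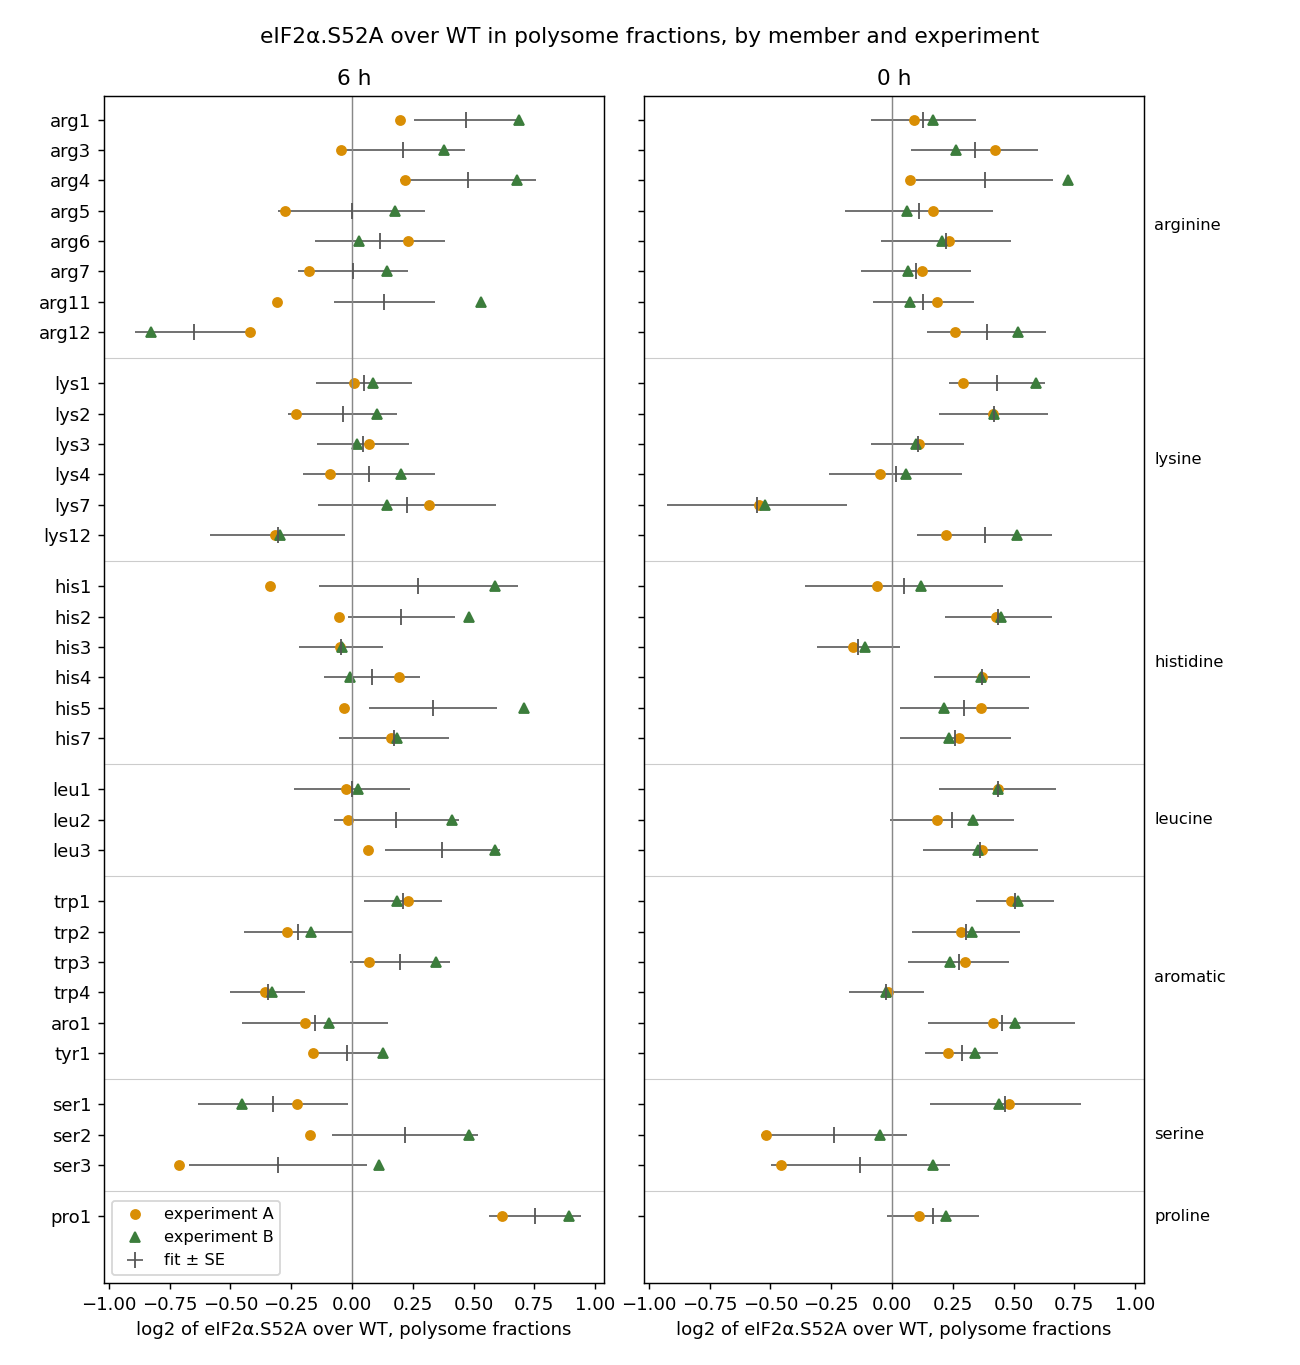
Log2 of eIF2α.S52A over WT in polysome fractions (x axis) for each of the 33 genes (y axis, by pathway) at 6 h (left) and 0 h (right), with circles for experiment A, triangles for experiment B and ticks with bars for the fitted value and its SE. At 0 h 26 of the 33 have both symbols right of 0, and at 6 h pro1 (0.62 and 0.89) lies farthest to the right in both experiments, while arg12 (−0.42 and −0.82) lies farthest to the left in experiment B and ser3 (−0.71) in experiment A.

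At 6 h, pro1 had the highest and arg12 the lowest fitted difference between the strains in polysome fractions. pro1 had 179.95 and 176 CPM in eIF2α.S52A polysome fractions, against 117 and 94.35 CPM in those of WT cells. Both eIF2α.S52A libraries were above both WT libraries, and the log2 difference was 0.75 (SE 0.19, adjusted p = 0.0772, and 0.0393 with the replicate block). arg12 had 326 and 357 CPM, against 436 and 634 CPM (−0.65, SE 0.24, adjusted p = 0.174). edgeR's test called 0 of 33 beside 0.924% of all genes tested, 3 at an unadjusted p under 0.05 beside 19.1%, and DESeq2 called 1 (pro1, adjusted p = 0.0103) beside 6.21%. The median of the 33 was 0.08, against 0.00 over all genes tested, and 11 were higher and 7 lower in both experiments (33.3% and 21.2%, against 31.1% and 33.7% of all genes).

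Total mRNA placed these 2 genes the same way at 6 h. pro1 had 96.65 and 121 CPM in eIF2α.S52A cells, against 70.1 and 86.15 CPM in WT cells (0.48, SE 0.19, adjusted p = 0.316), and arg12 had 262 and 232 CPM, against 327 and 453 CPM (−0.66, SE 0.24, adjusted p = 0.286). Neither overlapped between strains. ser1 was lower by the same measure, with 141 and 134 CPM, against 194 and 270.3 CPM (−0.75, SE 0.31, adjusted p = 0.337). edgeR's test called 0 of 33 beside 0.519% of all genes tested, 3 at an unadjusted p under 0.05 beside 13.0%, and DESeq2 called 0 beside 2.98%. At 0 h it called 0 of 33 beside 0.0162%, 0 at an unadjusted p under 0.05 beside 2.04%, and DESeq2 called 0 beside 0.081%, with a median of −0.01 and a range of −0.23 to 0.35. The top of that range was arg3, the ornithine carbamoyltransferase, with 71.05 and 64.2 CPM in eIF2α.S52A cells, against 59.6 and 46.2 CPM in WT cells (SE 0.26, adjusted p = 1.0), and arg12 stood at 0.20 (SE 0.24) with 281 and 243 CPM, against 267 and 189 CPM.

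Neighbouring genes of amino acid metabolism were taken from 2 lists for comparison. Of the 20 other synthesis genes 4 were called lower in WT polysome fractions and 0 higher, which is 20.0% beside 17.5% of all genes tested. Those were gln1 (glutamine synthetase, −1.96), shm1 (serine hydroxymethyltransferase, which uses the serine that ser3, ser1 and ser2 make, −1.60), ilv5 (acetohydroxyacid reductoisomerase of isoleucine and valine synthesis, −0.996) and pro3 (−0.70), the last step to proline. In eIF2α.S52A polysome fractions gln1 (−1.88) and shm1 (−1.28) were called lower, 2 of the 20 beside 6.99% of all genes. Of the 16 sulfur branch genes 3 were called higher and 0 lower in eIF2α.S52A polysome fractions (18.8% beside 6.99%): cys2, met17 and cys11, at 2.72, 2.30 and 1.64. In WT polysome fractions 4 were called higher and 2 lower (37.5% beside 17.5%). cys2, met17, cys11 and sua1, the sulfate adenylyltransferase, rose (3.07, 3.59, 2.22 and 1.75), and met14, the adenylyl-sulfate kinase (−1.07), and met26, the homocysteine methyltransferase (−1.04), fell. Among the 33 genes the highest fitted value was that of ser3, at 1.09 and 1.27 in the same fractions. lys9 and his6, the 2 listed genes found by identifier, were not called: their smallest adjusted p over the 13 comparisons were 0.295 and 0.186, with 541 to 1141 CPM for lys9 and 71.9 to 244 CPM for his6 over the 16 libraries.

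Of the 8 regulators listed, hri1, the gene of another eIF2 kinase, rose in polysome fractions of both strains (3.07 in eIF2α.S52A and 2.51 in WT cells). It was the regulator called in eIF2α.S52A polysome fractions (12.5% of the 8 beside 6.99%). In WT polysome fractions 2 more were called (37.5% beside 17.5%), both lower: tif211, the gene of eIF2α itself (−0.74, adjusted p = 0.027), and cpc2, the RACK1 ortholog (−1.27, adjusted p = 0.0139). In total mRNA hri1 was called higher in both strains (2.63 in eIF2α.S52A and 2.30 in WT cells). tif211 (−0.87, adjusted p = 0.0213) and cpc2 (−1.19, adjusted p = 0.0242) were called lower in WT total mRNA. These are 12.5% of the 8 in eIF2α.S52A total mRNA beside 2.87%, and 37.5% in that of WT cells beside 12.0%. In eIF2α.S52A polysome fractions tif211 stood at −0.64 (adjusted p = 0.0733). DESeq2 called 3 of the 8 regulators there, beside 14.1% of all genes. These were hri1 higher, and tif211 (−0.68, adjusted p = 0.00405) and cpc2 (−0.93, adjusted p = 0.0123) lower. fil1 had 76.8 and 113 CPM in polysome fractions of eIF2α.S52A cells at 6 h and 137 and 112 CPM at 0 h (−0.39, SE 0.27, adjusted p = 0.397), and 180.5 and 187 CPM in those of WT cells, against 159 and 113 CPM (0.43, SE 0.26, adjusted p = 0.272). At 6 h its polysome libraries did not overlap between the strains (−0.95, SE 0.27, adjusted p = 0.102). In total mRNA at 6 h fil1 had 98.5 and 163 CPM in eIF2α.S52A cells, against 190 and 188 CPM in WT cells (−0.53, SE 0.26, adjusted p = 0.419). The strain difference of its TE changes was −0.47 (SE 0.53) and was not called. In polysome fractions at 6 h DESeq2 called 3 of the 8 regulators between the strains, fil1 lower (−0.98, adjusted p = 0.0146) and tif211 (0.56) and cpc2 (0.89) higher, beside 6.21% of all genes. gcn2 had 45.3 and 28.4 CPM in polysome fractions of eIF2α.S52A cells at 6 h, against 33.3 and 16.9 CPM at 0 h, and 41.8 and 38.4 CPM in those of WT cells, against 26.4 and 20.3 CPM (0.79, SE 0.28, adjusted p = 0.0741 in WT cells).

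The leaders and upstream sequences were read from the RefSeq annotation of ASM294v3, to which all 33 genes matched by locus tag, and which is not the assembly the counts were made on. An AUG upstream of the start codon, which can take up scanning ribosomes, as in GCN4 of budding yeast, was annotated in the 5′-leader of 4 of the 33 (12.1%), against 1635 of the 4501 genes with a leader (36.3%). These were lys7 with 3, tyr1 with 2, and arg6 (acetylglutamate synthase) and trp2 (tryptophan synthase) with 1 each, and the leaders of the 33 had a median length of 72 bases, against 97. Of the 3 genes called with time, tyr1 thus has upstream AUGs, and ser3, whose annotated leader of 512 bases is the longest of the 33, and arg12 have none. A relation of upstream AUGs to the changes was not tested.

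The letters GATAA, the core of the sites that GATA-type factors such as Fil1 bind, were searched on both strands in the 250 bases before the transcript start. They stood in 22 of the 33 genes (66.7%), against 54.0% of the 5012 protein-coding genes, and in the nearer of the 2 equal parts of that window in 15 of the 33 (45.5%), against 30.2%. Of the 8 arginine genes 7 held them, arg6 being without, while ser3 and tyr1 held none. TGACTC, the core of the Gcn4 site of budding yeast, stood in 2 of the 33 (his7, the phosphoribosyl-AMP cyclohydrolase, and leu3), which is 6.06%, against 5.67% of all. The motif shares describe these windows, which often reach into neighbouring annotated transcripts, and neither motif contains the other. To show what was counted, the copies nearest to the transcript start are given below for arg12, arg7, his4 and leu3, genes whose values are given above, with 10 bases on either side, the motif in capitals, read 5′ to 3′ on the strand that holds GATAA.
arg12: catctttataGATAAacgatggaaa
arg7: aagctaaaatGATAAgtgcgaatat
his4: gactctgtaaGATAAtgaagttgat
leu3: tgatggtggcGATAAcgataacgat
The motif lies 111 bases before the transcript start in arg12, on the strand opposite to the gene, 74 in arg7 and 85 in his4, both on the strand of the gene, and 62 in leu3, opposite to it, where a further copy follows directly in the printed window. In the 250 bases arg12 held 1 copy and arg7 held 2 copies. The bases from the transcript start through the printed window were free of annotated exons in his4 and leu3, but not in arg12 and arg7. A relation of the copies to the changes with time was not tested.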

How the data were processed

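Libraries from poly(A) RNA were stranded. The authors aligned reads with STAR to ASM294v2 and counted them per gene with QoRTs; their versions were not given in the sources used here. Deposited counts, whole reads per gene with no normalization, were used; the deposited normalized values were left out. After TMM scaling and filterByExpr, which kept 6170 of 7014 genes, 1 model of 8 group means was fitted in edgeR 4.0.16 (limma 3.58.1, R 4.3.3), which left 8 residual degrees of freedom beside 4.1 from the prior. Each of 13 comparisons was tested by edgeR's quasi-likelihood F-test. Benjamini-Hochberg adjustment ran over the 6170 genes, with calls made below 0.05. An adjusted p without a named tool comes from this test. CPM use TMM-scaled library sizes, and log2 values of single libraries a prior count of 1. Statements that groups did not overlap describe 2 libraries a group. They are no test, and their share over all genes was not counted.

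The sample descriptions among the labels mark replicate 1 as experiment A and replicate 2 as experiment B, so replicate numbers pair the libraries and served as a block in one alternative: over the 28 pairs of groups the correlation of deviations was −0.105 to 0.73 (median 0.302, over 0.1 in 22). Other alternatives were DESeq2 1.42.0, library size scaling, no filter, each library left out, and replicate 2 of eIF2α.S52A cells at 6 h left out in both fractions. The tests were checked on simulated counts.

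The genes and lists were chosen with earlier results of these data known. Any of the genes may be named. Values in each library were given, per pathway and change with time, for the called gene with the largest change or else the smallest p, for called genes or the 2 with the smallest p in the other comparisons, and for the highest and lowest level per length. The rule also named fil1, gcn2 and tif211, and up to 2 examples by smallest p from the other lists. Genes given beyond this were chosen after their values were seen. They include ser1, ser3 and tyr1 between strains, tyr1 in WT cells, his1 and ser2 with the block, and the further called genes of the other lists. str3 was dropped from the sulfur branch list because the table describes it as an iron transporter. Exon lengths, leaders and upstream bases come from RefSeq ASM294v3; no coordinates are given.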

Additional observations from a re-analysis of the deposited data

How the results depend on the processing

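Counts of called genes rested on the tool, the scaling and single libraries, and the cause was not tested. For the changes with time in eIF2α.S52A polysome fractions, WT polysome fractions, eIF2α.S52A total mRNA and WT total mRNA, the fit reported called 1, 2, 0 and 1 of the 33 genes, DESeq2 4, 5, 1 and 5, the replicate block 3, 6, 0 and 4, library size scaling 8, 10, 0 and 2, all of them higher, and the fit without replicate 2 of eIF2α.S52A cells at 6 h 3, 5, 1 and 4. Over all genes tested the same fits called 6.99, 17.5, 2.87 and 12.0%, DESeq2 14.1, 24.0, 7.8 and 20.3%, the block 13.7, 27.4, 7.49 and 22.3%, library size scaling 31.9, 33.3, 3.1 and 13.7%, and the fit without that replicate 18.4, 26.0, 12.8 and 21.6%. In each of these fits the share of the 33 was below that of all genes, in some by little (30.3% beside 33.3% with library size scaling in WT polysome fractions). The fits use the same libraries or a part of them, so they are not repeated evidence, and the difference in shares was not tested. Leaving out 1 library gave 0 to 3, 0 to 1, 0 to 1 and 0 to 0, and called 0.6 to 14.0, 3.97 to 8.51, 0.0 to 4.91 and 0.259 to 2.79% of all genes. For the strains in polysome fractions, DESeq2 called 1 at 0 h and 1 at 6 h, and the block and library size scaling 1 each at 6 h (pro1 higher with the block, arg12 lower with library size scaling). The block changed no other count, and the fit without a filter changed none. Library size scaling raised the median of all genes by 0.59 in eIF2α.S52A and 0.51 in WT polysome fractions and brought tyr1 to −0.050 and his5 to −0.0036, and turned lys3 to 0.27 and leu1 to 0.19 in eIF2α.S52A polysome fractions, and pro1 to 0.42 in WT polysome fractions and 0.17 in WT total mRNA. Without replicate 2 at 6 h pro1 stood at 0.12 in WT polysome fractions (−0.24 to 0.12 with each library left out), without replicate 2 at 0 h or replicate 1 at 6 h at 0.054 or 0.093 in WT total mRNA (−0.21 to 0.093), and without replicate 2 of WT cells at 0 h arg12 stood at −0.030 between strains in total mRNA at 0 h (−0.030 to 0.47). With 2 libraries a group, a test that misses the threshold does not show equal levels.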
